A study of Mus musculus with 8 samples.

Results

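The nuclear genes that encode subunits of respiratory complexes II to V, with cytochrome c, were followed in C2C12 myotubes depleted of macroH2A1.1. The 43 genes were chosen by the gene names printed with the array probes, using the older names of the ATP synthase subunits. They comprised 4 genes of complex II, 9 of complex III, Cycs (cytochrome c), 14 of complex IV and 15 of complex V. All 43 were measured among 13824 genes, through 73 probes of which 71 passed the filter on dim probes.

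C2C12 is a mouse myoblast line whose cells fuse into multinucleated myotubes when serum is withdrawn. The histone variant macroH2A1 is spliced into several forms, and macroH2A1.1 is the form with a macrodomain able to bind ADP-ribose. The series title concerns mitochondrial respiration, so subunit genes of the respiratory chain are one place to look. Cells of the line were transfected with a control siRNA (4 samples) or with an siRNA against macroH2A1.1 (4 samples), and RNA of both groups was taken on day 4 of differentiation. The replicates are called biological, but how the cultures were made is not given in the sources used here, so a p-value covers only the spread among these samples, which may be technical. A treatment label calls the depleted samples a knockout, whereas their titles and the design name an siRNA, which was followed here. All cells are of 1 line, and bulk RNA cannot tell fewer cells of a type from less RNA per cell.

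Each sample was labelled with Cy3 from 500 ng of RNA and hybridised to 1 array. Signals below are log2 units above the 75th percentile of the same array, and a difference is the mean of the macroH2A1.1 siRNA arrays minus the mean of the control arrays. On each array 46.9% to 49.8% of 59305 non-control spots exceeded background clearly, and none was saturated; precision is limited by the number of arrays. The Macroh2a1 probe of highest signal read 1.56, 1.58, 1.63 and 1.52 on control arrays 1 to 4 and 0.50, 0.66, 0.40 and 0.80 on macroH2A1.1 siRNA arrays 1 to 4, so every depleted sample lay below every control. On all 3 Macroh2a1 probes kept, macroH2A1.1 siRNA array 4 read highest of the depleted arrays. These probes are assigned to the gene, and which spliced form each reads was not determined. All 12 myotube markers were measured, whereas 4 of the 7 adipocyte markers (Adipoq, Plin1, Cfd and Cidec) were not well above background on any array and 2 (Fabp4 and Pparg) were measured.

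Complex II, succinate dehydrogenase, feeds electrons from succinate to ubiquinone, and complex III passes them to cytochrome c. Complex IV, cytochrome c oxidase, hands them to oxygen, and complex V, the ATP synthase, uses the proton gradient that complexes III and IV help to build. Complex II is encoded by nuclear genes alone, whereas the other 3 also hold subunits made from mitochondrial DNA. In striated muscle, several cytochrome c oxidase subunits exist as a muscle form beside a form found in most tissues.

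Most subunit genes read slightly higher after macroH2A1.1 depletion. The difference was above 0 for 39 of the 43 genes (90.7%, against 51.0% of all genes measured), with a median of 0.20, or 14.6% in linear signal. The median over all genes was 0.0044. Over the brightest 10% of genes, which hold 37 of the 43 subunit genes, it was 0.04, with 853 of 1382 above 0. Of the 42 subunit genes measured in all 4 replicate pairs, 30 were higher in every pair, against 20.0% of all genes, and only Uqcrh was lower in every pair, against 17.6%. The groups did not overlap for 11 genes (25.6%, against 4.39% of all genes), each of them higher after depletion, and for no gene in the lower direction (3.54% of all genes). The 4 genes below 0 were Uqcrh, Atp5a1, Cox7a2l and Atp5g2.

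**Figure D1:**
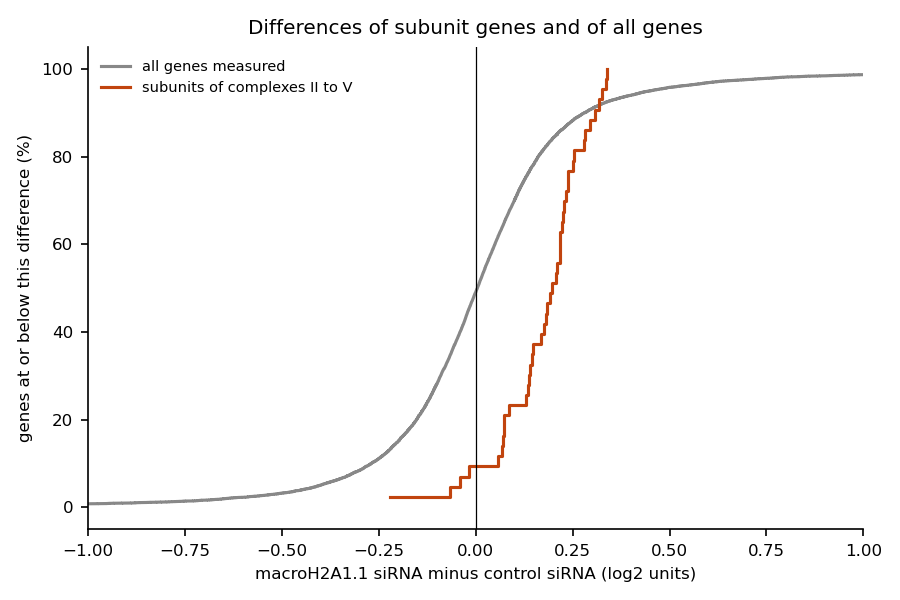
Cumulative share of genes (vertical axis, %) against the difference between macroH2A1.1 siRNA and control siRNA in log2 units (horizontal axis, drawn from -1 to 1), for the 43 subunit genes and all 13824 genes. The subunit curve lies to the right of the curve of all genes over most of its range and spans only -0.22 to 0.34.

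Single genes were then tested over all genes measured. With limma and Benjamini-Hochberg adjustment over all genes, no subunit gene passed 0.05 when replicate number was left out of the fit (0.0217% of all genes passed in either direction). At an unadjusted p under 0.05, 17 were higher (39.5%, against 6.59% of all genes) and 1 was lower, Uqcrh (against 5.53%). Samples of the same replicate number deviated together. With replicate number as a block, 3 genes rose, Uqcrc1, Cycs and Uqcr11 (6.98%, against 4.17% of all genes), and none fell (against 3.73%); the share that rose is close to the background. In that fit 24 were higher at an unadjusted p under 0.05 (14.8% of all genes). Leaving out any 1 pair left 0 subunit genes past the threshold. Without pair 1 or pair 3 no gene at all passed, whereas 115 of all 13824 genes passed without pair 2 and 581 without pair 4. Processing mattered as well. With the block, 0 subunit genes passed after median centring (760 of all 13824 genes) or with no filter (0 of 24129). The count was 8 after normexp background correction (1901 of 13824 genes) and 10 with the authors' series values (1721 of 13824). The fit with the block before these changes called 1091 genes, so calls over all genes moved in the same directions.

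The size of the difference varied between pairs. The median over the 43 genes was 0.30 in pair 1, 0.14 in pair 2, 0.16 in pair 3 and 0.15 in pair 4, and pair 1 gave the largest difference for 27 of the 42 genes measured in all pairs. Across complexes the median difference was 0.17 for complex II, 0.22 for complex III, 0.19 for complex IV and 0.21 for complex V. Without control replicate 4 the complex IV median was 0.12, below the 0.19 of complex II. Without control replicate 1, complex V (0.20) stood above complex III (0.19). With normexp background correction, complex IV (0.18) stood above complex V (0.16). The order of the complexes thus depends on the arrays and on the processing. Markers of myotubes read higher too: 12 of 12 were above 0, with a median of 0.32. In the fit with the block 6 of these markers rose (4.17% of all genes). Their summed linear signal, in multiples of the 75th percentile, ran from 2121 to 2900 on control arrays and from 2617 to 3850 on macroH2A1.1 siRNA arrays. Of 7 fibroblast markers measured, 6 were below 0 and 2 (Postn and Col1a2) fell in that fit (3.73% of all genes). The summed fibroblast signals were 945 to 1220 in the controls and 838 to 1180 after depletion. Both measured adipocyte markers rose in the fit with the block, Fabp4 by 1.42 (limma adjusted p with the block = 0.0278) and Pparg by 0.39 (0.0282). Their summed signals were 2.02 to 3.29 in the controls and 2.71 to 4.13 after depletion. Fabp4 was well above background on only 6 arrays, with a mean of -3.86 in the controls and -2.45 after depletion. The filter required this in either group only, so the size of the Fabp4 rise rests partly on signals not well above background. Of 6 myoblast and reserve-cell markers measured, Heyl and Cdh15 rose and Cd34 fell in that fit, with summed signals of 118 to 191 and 117 to 196. Of the other lists, no cycling-cell marker (9 measured) and no macrophage marker (5 measured) passed. The part of these shifts in the subunit differences was not tested.

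**Figure D2:**
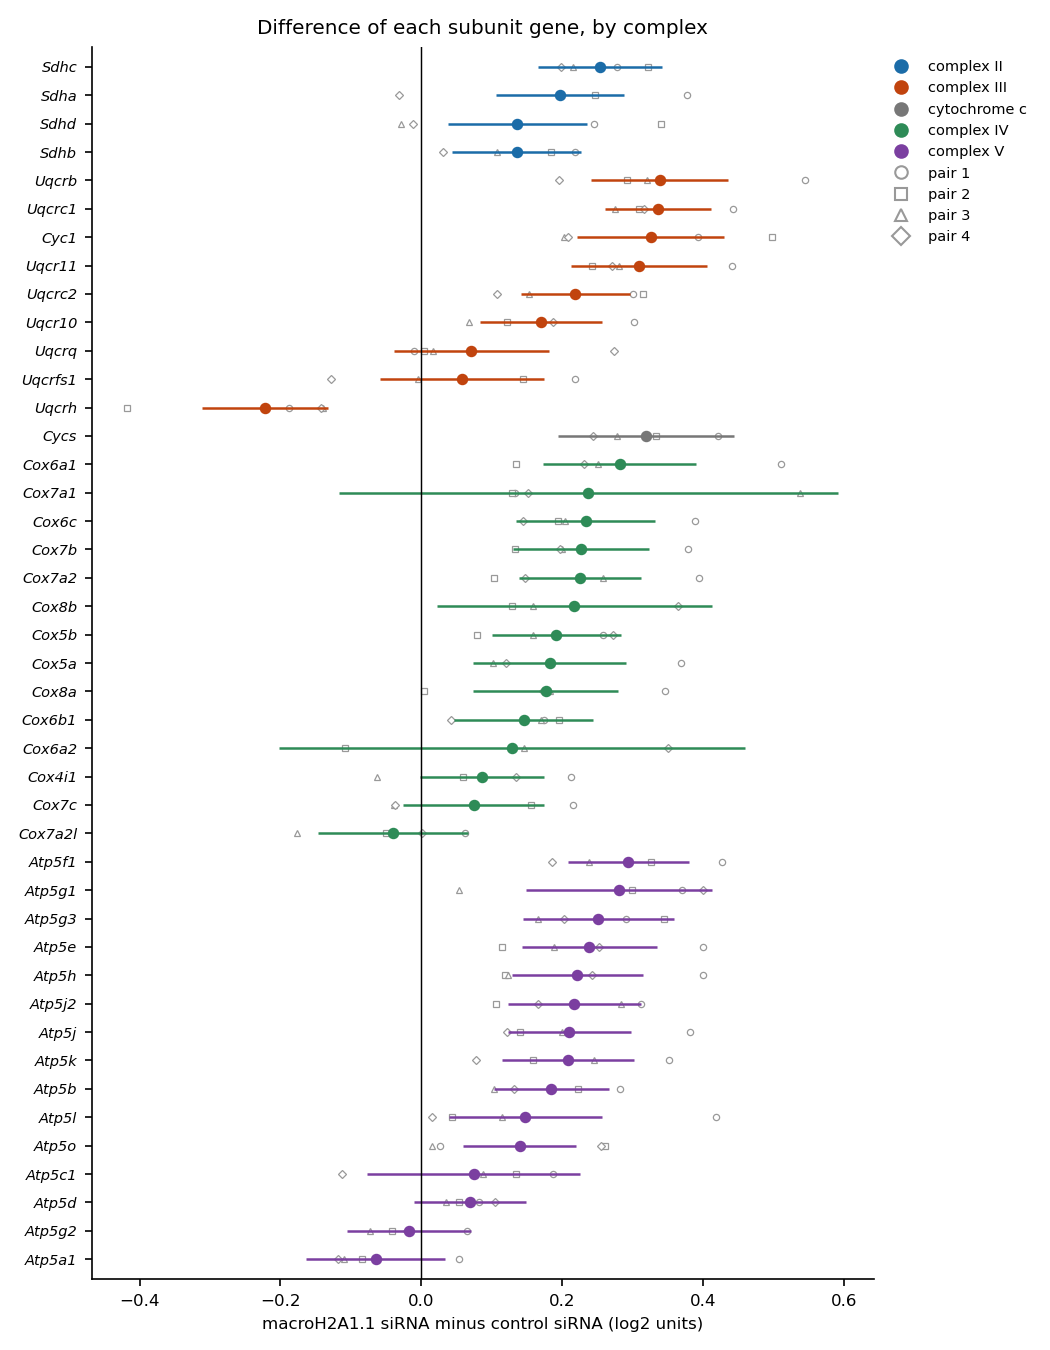
Difference between macroH2A1.1 siRNA and control siRNA in log2 units (horizontal axis) for each of the 43 subunit genes, grouped by complex. Filled points with bars are the limma difference and its standard error without the block, and open symbols are the 4 replicate pairs. Uqcrh is the one gene whose 4 pairs all lie below 0, and Cox6a2, Cox7a1 and Cox8b carry the widest bars within complex IV.

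Promoters of these genes are known for binding sites of NRF-1 and of the ETS factor GABP, which drive many nuclear genes of mitochondria. RefSeq promoter sequences (build GRCm38.p6) were matched for 34 of the 43 genes, and the 250 bases before the start were searched on both strands. The NRF-1 motif (GCGCA, any base, GCGC) lay in the promoters of 7 genes (20.6%), against 4.23% of all 27025 genes with an entry, and the ETS motif CCGGAAG in 9 (26.5%), against 7.83%. The ERR core site AAGGTCA was found in 2 (5.9%, against 4.7%), the YY1 motif AAGATGGC in 1 (2.9%, against 1.83%), the MEF2 motif (CTA and TAG with 4 bases between) in 1 (2.9%, against 3.7%) and the muscle E-box CAGCTG in 2 (5.9%, against 14.72%). The reference promoters include those of non-coding genes. No motif overlaps another in the promoters shown. The windows of Sdha and Cox6a1, shown because they hold more of these motifs than the other genes searched, lie on the minus strand at chr13:74350241-74350490 and chr5:115348959-115349208, with motif letters in capitals.
Sdha: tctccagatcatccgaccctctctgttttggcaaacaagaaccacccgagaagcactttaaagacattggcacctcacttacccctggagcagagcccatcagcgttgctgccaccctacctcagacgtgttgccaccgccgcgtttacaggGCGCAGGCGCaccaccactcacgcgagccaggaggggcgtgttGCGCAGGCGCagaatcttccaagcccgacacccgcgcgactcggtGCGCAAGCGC
Cox6a1: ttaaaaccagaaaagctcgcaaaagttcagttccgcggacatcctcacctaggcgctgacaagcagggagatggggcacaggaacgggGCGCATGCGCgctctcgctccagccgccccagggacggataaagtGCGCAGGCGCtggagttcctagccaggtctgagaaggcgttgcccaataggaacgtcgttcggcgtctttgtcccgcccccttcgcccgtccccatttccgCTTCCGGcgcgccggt
Sdha has 3 NRF-1 matches, at -98 to -89, -55 to -46 and -10 to -1 from the start, and Cox6a1 has 2, at -162 to -153 and -117 to -108, with an ETS match at -16 to -10. The median difference was 0.20 for the 7 genes with the NRF-1 motif and 0.19 for the 27 without, and 0.21 for the 9 genes with the ETS motif and 0.19 for the 25 without.

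Complex II is built from the flavoprotein Sdha, the iron-sulphur protein Sdhb and the membrane anchors Sdhc and Sdhd. All 4 read higher on average, and Sdhc alone separated the groups (4.39% of all genes were higher without overlap). Sdha read 4.77, 4.89, 4.79 and 4.90 on control arrays 1 to 4 and 5.14, 5.13, 4.99 and 4.87 on macroH2A1.1 siRNA arrays 1 to 4. The depleted arrays of pairs 1 to 3 lay above their controls, and pair 4 differed by -0.03. The difference was 0.20 ± 0.09 (SE, n = 4 per group), with a limma adjusted p of 0.437, or 0.192 with the block. Sdhb gave 6.24, 6.44, 6.39 and 6.30 in the controls and 6.46, 6.63, 6.49 and 6.33 after depletion, higher in 4 of 4 pairs although the groups overlapped (difference 0.14 ± 0.09). Without macroH2A1.1 siRNA replicate 2 it was 0.086, and 0.088 with the mean of both Sdhb probes, of which the other differed by 0.04.

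Sdhc gave 4.19, 4.30, 4.45 and 4.37 in the controls and 4.47, 4.63, 4.66 and 4.57 after depletion. Every depleted array was above every control, and the pairs differed by 0.20 to 0.32. Its limma difference was 0.25 ± 0.09, with an adjusted p of 0.303 without the block and 0.0553 with it. Sdhd read 5.25, 5.32, 5.31 and 5.39 in the controls and 5.50, 5.66, 5.28 and 5.38 after depletion. Pairs 1 and 2 differed by 0.25 and 0.34 and pairs 3 and 4 by -0.03 and -0.01, so its mean difference of 0.14 ± 0.10 came from pairs 1 and 2, and it was 0.067 without macroH2A1.1 siRNA replicate 2.

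Complex III held 2 of the 3 genes that rose (4.17% of all genes did) and the one subunit gene lower in every pair. Its core proteins Uqcrc1 and Uqcrc2 differed by 0.34 and 0.22, and cytochrome c1 (Cyc1) by 0.33. The Rieske iron-sulphur protein Uqcrfs1, which carries electrons within the complex, differed by 0.06 ± 0.12, or by -0.021 without macroH2A1.1 siRNA replicate 2. Among the small subunits the differences were 0.34 for Uqcrb, the highest of the complex, 0.31 for Uqcr11, 0.17 for Uqcr10 and 0.07 for Uqcrq. The hinge protein Uqcrh, which helps cytochrome c1 and cytochrome c to meet, differed by -0.22. Groups did not overlap for 5 of the 9 genes, all higher: Uqcrc1, Uqcrc2, Uqcrb, Uqcr11 and Cyc1. The same held for 4.39% of all genes and for 94 of the 1382 brightest.

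Uqcrc1 read 3.90, 4.08, 4.02 and 3.97 on control arrays 1 to 4 and 4.34, 4.38, 4.29 and 4.29 on the depleted arrays. The lowest depleted array stood 0.21 above the highest control. Uqcrc1 rose by 0.34 ± 0.06 (SE, n = 4 pairs) in the fit with the block, or 26.2%, with a limma adjusted p of 0.0361 (0.16 without the block). The probes of Uqcrc1 and Cyc1, a core protein and a cytochrome of the complex, are shown as what the array read; each keeps an open reading frame over its 60 bases. They were designed on the plus strand of mm9, at chr9:108851008-108851487, a span of 480 bases for 60 bases of probe, and at chr15:76175938-76175997.
Uqcrc1 probe: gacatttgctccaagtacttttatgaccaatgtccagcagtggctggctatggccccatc
Cyc1 probe: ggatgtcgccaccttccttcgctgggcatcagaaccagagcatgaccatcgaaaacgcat
Cyc1 gave 5.86, 6.07, 6.03 and 6.09 in the controls and 6.25, 6.57, 6.23 and 6.30 after depletion. Its depleted array 2 stood highest, and all 4 depleted arrays lay above all controls. The difference was 0.33 ± 0.10, with a limma adjusted p of 0.277 without the block and 0.058 with it. Uqcrb read 5.88, 6.15, 6.11 and 6.0 in the controls and 6.43, 6.44, 6.43 and 6.20 after depletion, without overlap, and its adjusted p was 0.0551 with the block.

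Uqcr11 and Uqcrh differed in opposite directions, and each has an ETS match near its start. Their windows, on the minus strand at chr10:80406822-80407071 and chr4:116075071-116075320, are shown for that contrast, with the match in capitals at -66 to -60 in Uqcr11 and at -10 to -4 in Uqcrh.
Uqcr11: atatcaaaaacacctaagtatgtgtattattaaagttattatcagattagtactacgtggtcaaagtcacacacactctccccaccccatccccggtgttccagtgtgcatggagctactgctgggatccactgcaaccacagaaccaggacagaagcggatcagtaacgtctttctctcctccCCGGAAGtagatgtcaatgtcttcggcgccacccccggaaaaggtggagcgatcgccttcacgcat
Uqcrh: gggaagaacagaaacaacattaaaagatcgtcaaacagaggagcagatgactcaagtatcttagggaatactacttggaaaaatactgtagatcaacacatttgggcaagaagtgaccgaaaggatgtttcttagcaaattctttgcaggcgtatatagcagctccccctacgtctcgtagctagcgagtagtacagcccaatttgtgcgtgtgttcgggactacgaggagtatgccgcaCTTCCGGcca
Uqcr11 gave 6.85, 6.84, 6.80 and 6.67 in the controls and 7.29, 7.08, 7.08 and 6.94 after depletion, and the groups did not overlap. Uqcr11 rose by 0.31 ± 0.06 (SE, n = 4 pairs), or 23.9%, with a limma adjusted p of 0.0463 with the block and 0.267 without it. Uqcrh read 7.06, 7.33, 7.21 and 7.14 in the controls and 6.88, 6.91, 7.07 and 7.0 after depletion. Each depleted array lay below its paired control, with pair differences from -0.42 to -0.14, while depleted array 3 reached just above control array 1. The difference was -0.22 ± 0.09, or -14.3%, and its adjusted p was 0.373 without the block and 0.118 with it. The other Uqcrh probe differed by -0.23, but the array design places it on chromosome 2, whereas the probe used lies on chromosome 4, so the signal may be shared with a near-identical copy. The same holds for the other probe of Uqcr11 (difference 0.25), placed on chromosome 1 and not 10. With the mean of both probes, Uqcr11 did not pass the threshold in the fit with the block.

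Cytochrome c, the soluble carrier between complexes III and IV, is encoded in somatic cells by Cycs. Cycs read 5.93, 6.12, 5.83 and 5.78 on control arrays 1 to 4 and 6.35, 6.45, 6.11 and 6.02 on the depleted arrays. Each depleted array was above its paired control, but the groups overlapped, since control array 2 exceeded depleted arrays 3 and 4. Cycs rose by 0.32 ± 0.06 (SE, n = 4 pairs), or 24.7%, with a limma adjusted p of 0.0407 with the block and 0.36 without it. A dimmer Cycs probe differed by 0.34.

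**Figure D3:**
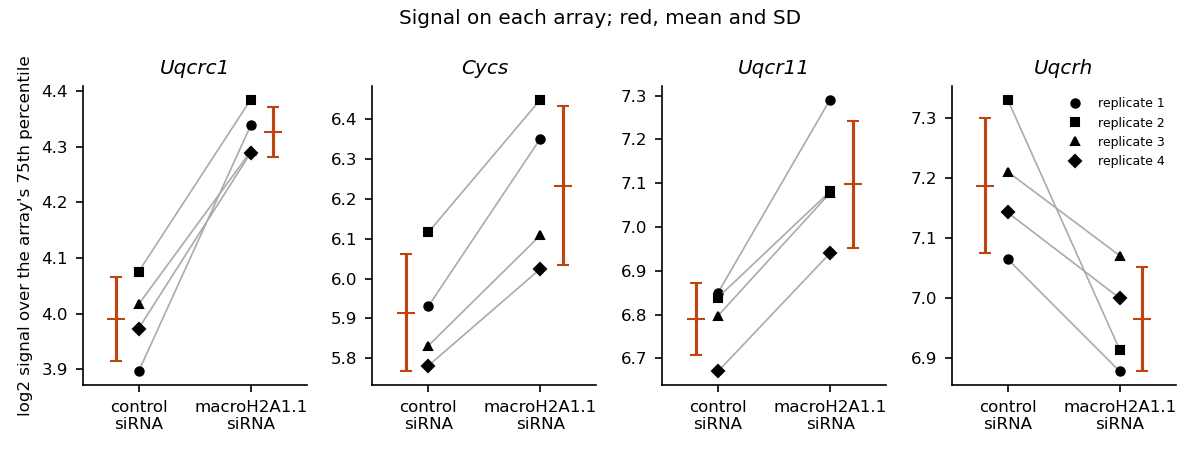
Signal on each array (vertical axis, log2 units above the array's 75th percentile) for Uqcrc1, Cycs, Uqcr11 and Uqcrh in control siRNA and macroH2A1.1 siRNA samples. Symbols are replicate numbers, grey lines join samples of the same number, and red bars are mean and SD (n = 4). The 4 lines rise for Uqcrc1, Cycs and Uqcr11 and descend for Uqcrh, and the vertical axes differ between panels.

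Complex IV gave 13 of 14 genes above 0. None of its genes passed the threshold in either fit (0.0217% of all genes without the block, and 4.17% higher and 3.73% lower with it). Cox4i1 and the matrix-facing subunits Cox5a and Cox5b differed by 0.09, 0.18 and 0.19; the Cox5a value lacks macroH2A1.1 siRNA replicate 2, whose spot was an outlier. Cox6b1, which faces the intermembrane space, differed by 0.15, and the small membrane subunits Cox6c, Cox7b and Cox7c by 0.23, 0.23 and 0.07. The dimmer probes of Cox7c differed by 0.19 and 0.15. Groups did not overlap for 2 of the 14 genes, Cox5b and Cox7b, both higher (4.39% of all genes). Cox7a2l, a factor that joins complexes III and IV into supercomplexes, had the lowest difference of the complex. It read 6.88, 7.10, 7.30 and 6.99 in the controls and 6.94, 7.05, 7.13 and 6.99 after depletion, higher in 2 pairs and lower in 2, with a difference of -0.04 ± 0.11. Its 2 other probes differed by -0.07 and -0.15.

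Subunits 6a, 7a and 8 each exist in a muscle form (Cox6a2, Cox7a1, Cox8b) and a form of most tissues (Cox6a1, Cox7a2, Cox8a). The muscle forms varied far more between replicates than other subunits. Their SD over the 4 control arrays was 0.49 for Cox6a2, 0.61 for Cox7a1 and 0.33 for Cox8b, whereas the other 40 genes had SDs from 0.03 to 0.24. Cox6a2 read 7.07, 6.57, 7.74 and 6.95 on control arrays 1 to 4 and 7.20, 6.46, 7.88 and 7.30 on the depleted arrays, lowest in replicate 2 and highest in replicate 3 of both groups. Cox7a1 read 2.76, 3.13, 2.10 and 1.80 in the controls and 2.89, 3.26, 2.64 and 1.95 after depletion, highest in replicate 2 and lowest in replicate 4 of both groups. Cox8b gave 4.90, 4.49, 4.96 and 4.27 in the controls and 5.11, 4.62, 5.12 and 4.64 after depletion, with replicates 1 and 3 above replicates 2 and 4 in the controls and likewise after depletion.

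Marker lists varied between replicates as well. The summed signal of cycling-cell markers was 46.1 on control array 2 and 54.0 on depleted array 2, against 8.95 and 9.70 on the arrays of replicate 3. The summed myotube signal was lowest in replicate 2 of both groups. In both groups Cox6a2 thus read lowest, and Cox7a1 highest, in the replicate with the highest cycling and lowest myotube signal; with 4 replicates no correlation was computed, and the part of cell state in these values was not tested. The window before Cox8b is shown because it holds the muscle E-box, at -19 to -14; it lies on the minus strand at chr7:140900447-140900696.
Cox8b: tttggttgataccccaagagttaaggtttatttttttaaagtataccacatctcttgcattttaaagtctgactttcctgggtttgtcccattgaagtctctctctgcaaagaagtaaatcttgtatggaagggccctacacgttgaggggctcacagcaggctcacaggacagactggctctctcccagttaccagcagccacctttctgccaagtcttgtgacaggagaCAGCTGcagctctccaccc

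The forms of most tissues were steadier. Cox6a1 had the largest difference of complex IV and read 8.40, 8.66, 8.35 and 8.40 in the controls and 8.91, 8.80, 8.60 and 8.63 after depletion, higher in 4 of 4 pairs (difference 0.28 ± 0.11; limma adjusted p = 0.351, or 0.0877 with the block). Cox7a2 gave 5.27, 5.46, 5.29 and 5.28 and then 5.66, 5.57, 5.55 and 5.43, higher in 4 of 4 pairs (difference 0.23 ± 0.09). Cox8a gave 7.76, 8.08, 7.87 and 7.72 and then 8.10, 8.08, 8.05 and 7.89, with a difference of 0.18 ± 0.10. In Cox6a1 and Cox7a2 only control array 2 reached into the range of the depleted arrays.

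Whether depletion moved the balance of muscle and ubiquitous forms was asked of the within-array difference between the 2 genes of each pair. Cox6a2 minus Cox6a1 was shifted by -0.15 (exact permutation test, two-sided p = 0.714; within pairs 0.375). Cox7a1 minus Cox7a2 was shifted by 0.01 (exact p = 0.914; within pairs 0.625), and Cox8b minus Cox8a by 0.04 (exact p = 0.886; within pairs 0.75). Over the 3 shifts the Benjamini-Hochberg adjusted exact p was 0.914, and 0.75 within pairs. The smallest p that 4 against 4 samples allow is 0.0286, and 0.125 within pairs. The SD of the shift over pairs was 0.21, 0.22 and 0.14, larger than each shift. The sign of each shift changed when some single arrays were left out.

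**Figure D4:**
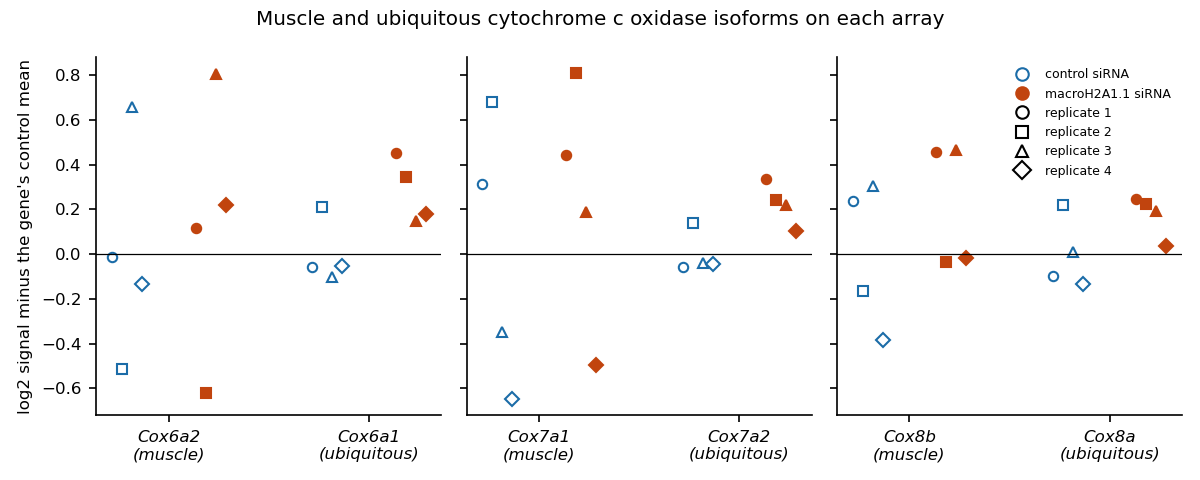
Signal on each array minus the mean of the same gene over the 4 control arrays (vertical axis, log2 units), for the muscle forms Cox6a2, Cox7a1 and Cox8b and their ubiquitous partners Cox6a1, Cox7a2 and Cox8a. Open blue symbols are control siRNA, filled red symbols macroH2A1.1 siRNA, and shapes are replicate numbers. Muscle forms spread over up to 1.33 units within a control group and the partners over 0.36 at most.

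Complex V gave 13 of 15 genes above 0. None of its genes passed the threshold in either fit (0.0217% of all genes without the block, and 4.17% higher and 3.73% lower with it). In its catalytic F1 head, the alpha subunit Atp5a1 and the beta subunit Atp5b, which form the catalytic ring together, differed by -0.06 and 0.18. Atp5a1, the lowest of the complex, read 5.79, 6.11, 5.94 and 6.06 in the controls and 5.84, 6.03, 5.83 and 5.94 after depletion, lower in 3 of 4 pairs. Atp5b was higher in 4 of 4 pairs without overlap of the groups. The central stalk genes Atp5c1, Atp5d and Atp5e differed by 0.07, 0.07 and 0.24, and Atp5c1 by -0.041 without macroH2A1.1 siRNA replicate 2.

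The peripheral stalk and membrane subunits other than subunit c were all above 0, from 0.14 to 0.29. They were subunit b (Atp5f1, 0.29), subunit d (Atp5h, 0.22), coupling factor 6 (Atp5j, 0.21), the oligomycin sensitivity protein (Atp5o, 0.14) and the small membrane subunits e, f and g (Atp5k, 0.21; Atp5j2, 0.22; Atp5l, 0.15). Atp5f1 gave 4.84, 4.88, 4.80 and 4.83 in the controls and 5.27, 5.21, 5.04 and 5.02 after depletion. All depleted arrays lay above all controls, and its limma adjusted p was 0.242 without the block and 0.0549 with it. Groups did not overlap for 3 of the 15 genes of the complex, Atp5f1, Atp5b and Atp5j, all higher (4.39% of all genes). The probes used for Atp5l and Atp5j2 are placed on chromosomes X and 9 by the array design, away from these genes, so their signal may be shared with near-identical copies. The other Atp5l probes, on chromosome 9, differed by 0.15 to 0.17, and the other Atp5j2 probe, on chromosome 5, by 0.20.

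Subunit c, which forms the rotating membrane ring, is made from 3 genes that encode the same mature protein. Atp5g1 read 6.98, 6.89, 7.31 and 6.73 in the controls and 7.35, 7.19, 7.36 and 7.13 after depletion, higher in 4 of 4 pairs. Atp5g3 read 7.48, 7.57, 7.53 and 7.31 in the controls and 7.77, 7.91, 7.70 and 7.52 after depletion, also higher in 4 of 4 pairs. Atp5g2 gave 8.24, 8.46, 8.50 and 8.33 and then 8.31, 8.42, 8.43 and 8.31, lower in 3 of 4 pairs. The differences were 0.28 ± 0.13, 0.25 ± 0.11 and -0.02 ± 0.09, and the difference between the genes was not tested. A second, dimmer Atp5g1 probe differed by -0.07 (0.11 for the mean of both probes), the one case among 19 genes with several measured probes in which probes took opposite signs.

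**Figure D5:**
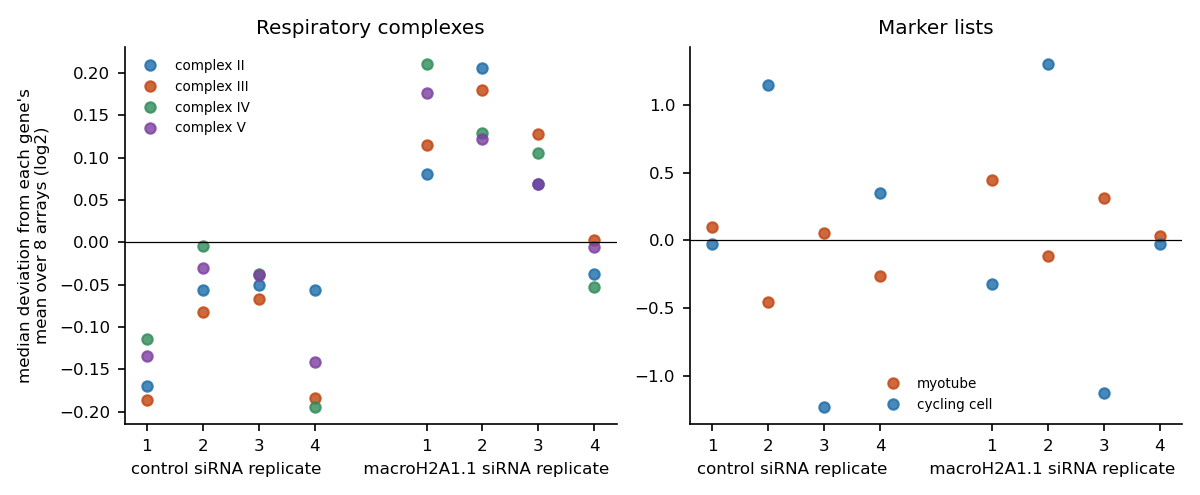
Median deviation of the genes of a list from each gene's own mean over the 8 arrays (vertical axis, log2 units), by array. The left panel shows complexes II to V, with every control array below 0 and macroH2A1.1 siRNA arrays 1 to 3 above 0, and the right panel the myotube and cycling-cell marker lists on a wider axis, where cycling markers deviate by 1.14 and 1.30 in replicate 2 and by -1.22 and -1.12 in replicate 3.

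Genes that assemble or regulate these complexes were taken from lists. In the fit with the block, 2 of 18 measured assembly genes of complex IV rose (4.17% of all genes) and none fell (3.73%). The median difference over the 18 was 0.11. Cox20, a chaperone of the mitochondrially encoded subunit COX2, rose by 0.81 ± 0.09 (SE), or 74.7%, with a limma adjusted p of 0.0167 (0.16 without the block). Cox19, a copper-delivery factor, rose by 0.35 ± 0.07, with an adjusted p of 0.0443 (0.215 without the block). For the other lists no gene passed in either fit. The medians were 0.07 for 4 assembly factors of complex II, 0.16 for 5 of complex III, 0.07 for 3 of complex V, -0.01 for 3 cytochrome c and supercomplex factors and 0.13 for 6 further subunits. Among the last, Usmg5 (now Atp5md) and Mp68 (now Atp5mpl), small ATP synthase proteins, differed by 0.28 and 0.25, whereas Cox4i2 was lower in 4 of 4 pairs (-0.12).

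The mitochondrially encoded subunits of complexes III to V, read after priming with oligo-dT, showed no such agreement between pairs. The 6 genes had differences from 0.06 to 0.14 and a median of 0.08, and their median was 0.27 and 0.25 in pairs 1 and 4 but -0.11 and -0.05 in pairs 2 and 3. None was higher in all 4 pairs. Of 10 regulators of respiratory chain genes, none passed in either fit (with the block, 4.17% of all genes rose and 3.73% fell). The coactivators Ppargc1a and Ppargc1b, which stimulate mitochondrial gene programmes, differed by 0.60 ± 0.27 and 0.36 ± 0.14 (SE without the block), higher in 4 of 4 pairs. Their limma adjusted p was 0.435 and 0.369 without the block and 0.0919 and 0.0593 with it. Esrra, a nuclear receptor that partners with these coactivators, differed by 0.21 with no overlap of the groups. Gabpb1, a subunit of the GABP factor, differed by -0.11 and was lower in 4 of 4 pairs, as were Gabpa and Yy1. Of the 10 regulators, 4 were thus higher and 3 lower in every pair, against 20.0% and 17.6% of all genes.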

How the data were processed

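Per the file headers, the deposited intensity values of these 1-colour arrays (8 in all) are output of Feature Extraction 10.7.3.1 (Agilent) on an mm9 design. The processed intensity was background-subtracted by that software. The deposited series table holds log2 values with a median of 6.29 in every column; their scale was found by setting each against its own array (r of 0.9977 to 0.9996), and their background handling stays unknown. They served as an alternative.

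Control spots were removed and outlier spots (143 to 236 on an array) treated as missing. The 75th percentile of log2 processed intensity was subtracted within each array, and repeated spots of a probe were averaged. A probe was kept (24988 of 55681) if either group had it well above background on all its 4 arrays. Names came from RefSeq accessions (27509 probes), current symbols (3549), older symbols (404) or the file (1808), and 22411 had none. The brightest kept probe stood for its gene.

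The 2 groups were tested in R 4.3.3 with limma 3.58.1 (lmFit, eBayes, two-sided, Benjamini-Hochberg over 13824 genes, threshold 0.05), without and with replicate number as a block. Deviations from the group mean correlated at 0.61, 0.55, 0.66 and 0.41 between samples of the same number, so the numbers were taken to pair samples. Same-numbered arrays also lie side by side on the slide. Shifts between isoforms were tested with exact permutations (70 regroupings). The limma fit was checked on simulated data. The changes put into those data were all larger than those of the subunit genes, so recovery of changes this small was not checked. Members, gene lists and marker lists were chosen with earlier results of these data known. Every array value is given for members past the threshold in either fit, complex II, isoform pairs, Cox7a2l, cytochromes c and c1, subunit c, and the highest and lowest of complexes III to V; values of other listed genes are given for at most 4 per list. Promoters were searched in Python 3.11.15 (pandas 2.3.3), and figures drawn with matplotlib 3.10.9.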

Additional observations from a re-analysis of the deposited data

Results flagged for a closer look

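A sample far from the other 3 of its group was looked for in 101 groups of 4 values (85 of single members, 8 of complex medians, 2 of the median of all members and 6 of isoform differences), and 7 were found where chance alone gives about 1 in 20. Control replicate 2 stood above the other controls in Uqcrfs1 (5.35), Cox6a1 (8.66) and Cox7a2 (5.46). Control replicate 4 stood below in Cox7b (6.60). The macroH2A1.1 siRNA replicate 4 stood below the other depleted samples in Uqcrb (6.20) and Uqcr10 (6.28). Control replicate 1 stood below the others in the median level of complex II, at -0.17 from the genes' own means.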

How the results depend on the processing

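The median difference stayed above 0 for all members and for complexes II to V in all 33 alternatives. Over all members it ran from 0.17 to 0.20 with other processing or models, and from 0.16 to 0.25 when arrays or pairs were left out. Between 37 and 41 members were above 0, and 39 of 43 were so under each other scaling. Over the alternatives the share of all genes above 0 ran from 45.0% with brightest-gene centring to 58.4% with no filter (24129 genes).

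Without the block, 0 members passed in each alternative. With the replicate block 3 passed (1091 of all 13824 genes). Alternatives of that fit were chosen after seeing the data. Of the members, 8 passed with normexp (1901 of all genes) and 10 with the series values (1721 of all genes). Uqcrh was among the 10, lower by -0.26 with a limma adjusted p of 0.0483. With only probes above background on all arrays, 7 of 42 passed (1354 of 13205 genes). With median centring 0 passed (760 of all genes), and with no filter 0 passed (0 of 24129). Leaving out any 1 replicate number left 0 members (of all genes 0, 115, 0 and 581 passed without replicates 1, 2, 3 and 4). With quantile normalization or brightest-gene centring the same 3 passed (1025 and 1042 of all genes). With the mean of probes 3 passed (925 of all genes), namely Uqcrc1, Cycs and Uqcrb, and Uqcr11 did not. The cause was not tested.

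The shift of Cox6a2 against Cox6a1 ran from -0.42 to 0.12 when single arrays were left out, that of Cox7a1 against Cox7a2 from -0.19 to 0.22, and that of Cox8b against Cox8a from -0.087 to 0.15; the last was -0.0075 with the series values. The difference of Cox7a2l turned to 0.0089 and that of Atp5g2 to 0.0091 with array weights. When single arrays were left out, the difference of Cox6a2 ran from -0.096 to 0.38, that of Cox7a2l from -0.10 to 0.037 and that of Atp5g2 from -0.066 to 0.022. Without pair 3, in the fit with the block, Cox7a2l gave 0.0046 and Atp5g2 0.00085. Without macroH2A1.1 siRNA replicate 2, Uqcrfs1 gave -0.021 and Atp5c1 -0.041. Leaving out single arrays turned the sign of no other of the 43 members; the other alternatives were run gene by gene for 22 members. Signals not well above background limit some listed pathway genes (Lyrm7, Cox17, Pet100, Atpaf1, Cyct, Cox7b2, Cox8c), and Coa1 and Pet117 were not matched to a probe here.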
